A study of Mus musculus with 4 samples.

Results

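Globin and erythroid transcripts were examined in brain endothelial cells of newborn mice with and without endothelial PD-1, the immune checkpoint receptor encoded by *Pdcd1*. The 9 genes, chosen by symbol, were the embryonic alpha-like globin *Hba-x*, the adult alpha globins *Hba-a1* and *Hba-a2*, the embryonic beta-like globins *Hbb-y* and *Hbb-bh1*, the adult beta globins *Hbb-bs* and *Hbb-bt*, the heme enzyme gene *Alas2* and the alpha globin chaperone gene *Ahsp*. Of these, 7 had a row among the 21578 genes of the tables, 6 of them globins. *Hba-x* was in the reference annotation but had no row, so it held at most 4 reads in any library, and *Ahsp* was not analysed here. RNA sequencing was done on endothelial cells purified by flow cytometry from C57BL/6 brains at postnatal day 0, with 2 libraries per genotype. Pd1fl/fl mice carried floxed *Pd1* alleles, and Pd1cKO-Tie2 mice carried the same alleles with a *Tie2-Cre* transgene, whose promoter is active in endothelium and, as background, also in part of the blood lineage. The number of animals behind a library is not given in the sources used here, so the p-values measure the spread between these libraries, which may be technical. Libraries are named by the numbers of their columns. No sample label has the number of the column called Pd1cKO-Tie2 replicate 2 here, so only its genotype was used. The study's protocol for brain endothelial cells includes a red cell lysis step and sorting with antibodies to CD31 and CD45.

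Haemoglobin is built from a pair of alpha-like and a pair of beta-like chains, each holding a heme. In the mouse, primitive red cells of the yolk sac express the embryonic chains, and definitive red cells of the fetal liver and bone marrow express the adult chains, so that around birth the adult genes dominate in blood. *Alas2* encodes the erythroid form of the first enzyme of heme synthesis. Endothelial cells are not a main source of these transcripts, and red cells and reticulocytes in a preparation carry them in large amounts.

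The sequences decided how far the members could be told apart, and stretches of the coding sequences are shown here for that reason. The coding sequences of *Hba-a1* and *Hba-a2* are 429 bases long in GENCODE M21 and differ at 1 base, C381T, with positions counted from 1 at the first base of the start codon and the *Hba-a1* base given first. Those of *Hbb-bs* and *Hbb-bt* are 444 bases long and also differ at 1 base, C417T, with the *Hbb-bs* base first. In both pairs the identity was 99.8%. The 60 bases below (coding positions 351 to 410, exon 3 of each gene, plus strand) hold that base for the alpha genes, with *Hba-x* added for comparison. In *Hba-a1* (GRCm38 chr11:32284313-32284372) and *Hba-a2* (chr11:32297130-32297189) the capital is the base that differs between them, and in *Hba-x* (chr11:32277930-32277989) capitals mark its 27 differences from *Hba-a1*.
Hba-a1: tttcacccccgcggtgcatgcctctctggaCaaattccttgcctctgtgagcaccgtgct
Hba-a2: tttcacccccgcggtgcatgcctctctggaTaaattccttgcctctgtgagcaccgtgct
Hba-x: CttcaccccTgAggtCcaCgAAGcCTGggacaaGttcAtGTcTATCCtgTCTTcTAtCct

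The last 60 coding bases of the beta genes (positions 385 to 444, exon 3, minus strand) are given in the same way. They lie at GRCm38 chr7:103826665-103826724 in *Hbb-bs*, chr7:103812656-103812715 in *Hbb-bt*, chr7:103851874-103851933 in *Hbb-y* and chr7:103841752-103841811 in *Hbb-bh1*. Capitals mark the base that separates *Hbb-bs* from *Hbb-bt*, and in the embryonic genes they mark the 9 and 11 differences from *Hbb-bs*.
Hbb-bs: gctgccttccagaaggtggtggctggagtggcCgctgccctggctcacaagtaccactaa
Hbb-bt: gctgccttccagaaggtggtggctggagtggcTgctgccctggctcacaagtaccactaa
Hbb-y: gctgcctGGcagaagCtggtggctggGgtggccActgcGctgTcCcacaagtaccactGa
Hbb-bh1: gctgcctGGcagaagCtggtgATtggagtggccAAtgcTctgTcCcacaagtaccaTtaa

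Over the whole transcripts, 72.3% of the 50-base stretches of *Hba-a1* and 89.3% of those of *Hba-a2* also occurred in the other alpha gene. The shares were 53.2% for *Hbb-bs* and 58.3% for *Hbb-bt*. *Hba-x*, *Hbb-y*, *Hbb-bh1* and *Alas2* shared no stretch of that length with any annotated transcript of another gene. The embryonic genes were clearly apart from the adult ones, with a coding identity of 62.0% between *Hba-a1* and *Hba-x*, 74.3% between *Hbb-bs* and *Hbb-y* and 74.1% between *Hbb-bs* and *Hbb-bh1*. How reads that match both copies of a pair were counted is not given in the sources used here. Single counts of *Hba-a1*, *Hba-a2*, *Hbb-bs* and *Hbb-bt* are therefore uncertain, and sums over each pair are given beside them. If such reads were left out, the sums are too low as well, and the loss may differ between alpha and beta. Every ratio or share that uses globin reads carries the same limit.

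Total gene counts per Pd1fl/fl library were 14359990 and 13715837, against 24147311 and 14157027 for the Pd1cKO-Tie2 libraries. A count of 0 allows 3 reads, which is 0.124 to 0.219 per 1000000 reads of a library's total. Levels are given as CPM (counts per 1000000 reads, scaled between libraries by the trimmed mean of M values, TMM). *Pdcd1*, the targeted gene, had 32 reads in Pd1fl/fl replicate 1 but none elsewhere, so it did not separate Pd1fl/fl replicate 2 from the knockouts. All 12 endothelial markers were above the filter on low counts, among them the tight junction gene *Cldn5* at 4774 to 7008 CPM. A change was called where it was at least 2-fold with p of 0.05 or less in edgeR. The thresholds are the study's own, but its methods name no model, so these calls need not match its own. The p-values were adjusted by Benjamini and Hochberg's method across 15909 tested genes.

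Adult alpha globin RNA was present in all 4 libraries, and its counted reads were almost wholly assigned to *Hba-a1* (chr11:32283511-32284465, plus strand). How much of the RNA came from each copy was not tested. *Hba-a1* had 6577 and 5232 reads in the Pd1fl/fl libraries, against 10207 and 11160 in the Pd1cKO-Tie2 libraries. As levels these were 456.2 and 368.6 CPM against 427.2 and 817.4 CPM. Thus Pd1cKO-Tie2 replicate 2 was high, while Pd1cKO-Tie2 replicate 1 lay between the Pd1fl/fl libraries and the groups overlapped. The mean level was 412.4 ± 62.0 CPM for Pd1fl/fl against 622.3 ± 275.9 CPM for Pd1cKO-Tie2 (SD, n = 2). The edgeR log2 fold change was 0.59 (SE 0.32, 95% interval -0.19 to 1.37) with adjusted p = 0.906. It rested on 1 library, being 0.06 without Pd1cKO-Tie2 replicate 2 and 1.00 without Pd1cKO-Tie2 replicate 1 (adjusted p = 0.999 and adjusted p = 0.909 in edgeR). With these bulk libraries, more red cells in a preparation and more globin RNA per cell cannot be told apart. By read count *Hba-a1* ranked between 134 and 373 among all genes of a library.

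*Hba-a2* (chr11:32296489-32297298, plus strand), the near-identical downstream copy, had 54 and 20 reads in Pd1fl/fl, against 29 and 12 in Pd1cKO-Tie2. The levels were 3.75 and 1.41 CPM against 1.21 and 0.879 CPM. Both Pd1cKO-Tie2 libraries were therefore below both Pd1fl/fl libraries, although by little from 1.41 to 1.21 CPM. The log2 fold change was -1.29 (SE 1.28, interval -4.46 to 1.88), an interval that holds both a large fall and a large rise. Between the copies, 121.8 and 261.6 reads were counted for *Hba-a1* per read of *Hba-a2* in Pd1fl/fl, against 352.0 and 930.0 in Pd1cKO-Tie2, whereas *Hba-a1* had only 3.20 times as many 50-base stretches of its own (211 against 66). The 2 copies summed gave a log2 fold change of 0.59 (SE 0.32, interval -0.19 to 1.37).

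Adult beta globin reads were mainly assigned to *Hbb-bs* (chr7:103826534-103828096, minus strand). It had 1513 and 1461 reads in Pd1fl/fl, against 2077 and 2026 reads in Pd1cKO-Tie2. The levels were 105.0 and 102.9 CPM against 86.9 and 148.4 CPM, so the Pd1fl/fl libraries were nearly equal and the Pd1cKO-Tie2 libraries lay on either side of them. The log2 fold change was 0.18 (SE 0.29, interval -0.53 to 0.89), and it turned to -0.25 without Pd1cKO-Tie2 replicate 2. *Hbb-bt* (chr7:103812524-103813996, minus strand), the adult copy with fewer counted reads, had 56 and 48 reads against 54 and 43 reads. Its levels of 3.88 and 3.38 CPM in Pd1fl/fl were above the 2.26 and 3.15 CPM of Pd1cKO-Tie2, and the log2 fold change was -0.43 (SE 0.94, interval -2.75 to 1.89). *Hbb-bs* and *Hbb-bt* summed gave 0.16 (SE 0.29, interval -0.54 to 0.87), and all 4 adult globins summed gave 0.51 (SE 0.30, interval -0.24 to 1.25), a 1.42-fold higher level with an interval from 0.849 to 2.39.

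**Figure D1:**
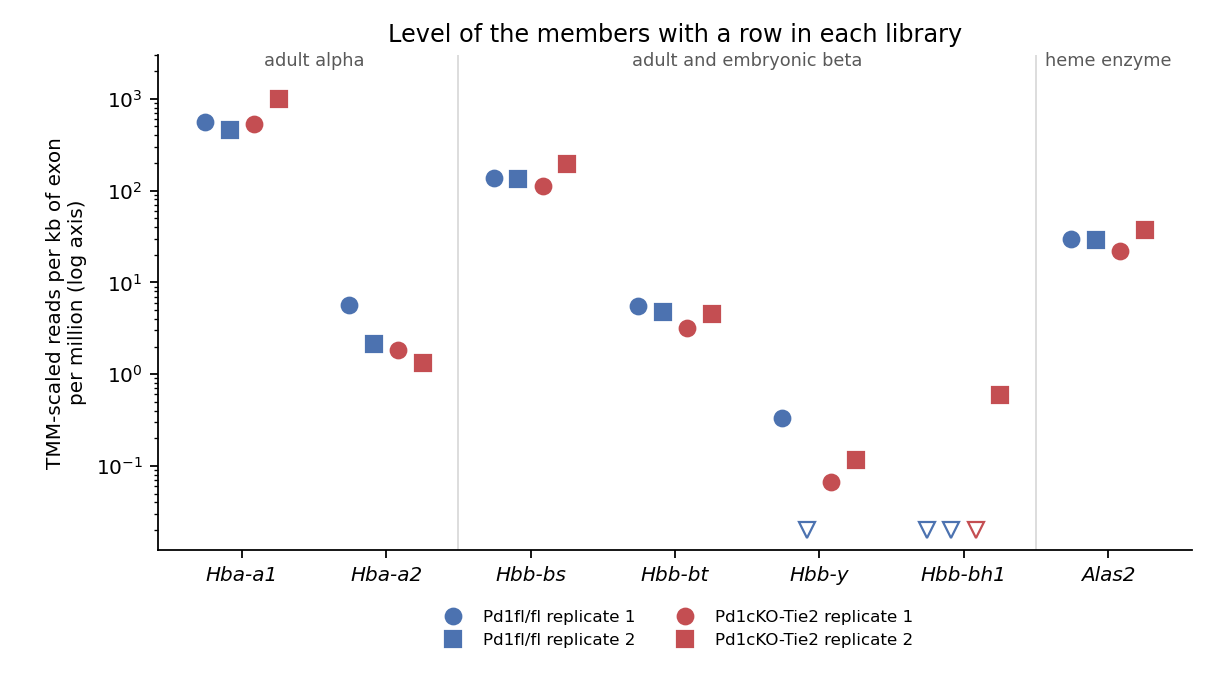
TMM-scaled RPKM (CPM per kb of exon) of the 7 members with a row, on a log axis, with 1 point per library (blue Pd1fl/fl, red Pd1cKO-Tie2; circles replicate 1, squares replicate 2) and open triangles at the bottom for counts of 0. *Hba-a1*, *Hbb-bs* and *Alas2* keep this order in all 4 libraries, and Pd1cKO-Tie2 replicate 2 is the highest library for each of these genes.

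The embryonic beta-like globins were at or near the detection limit. *Hbb-y*, the main embryonic beta chain, had 3 and 0 reads in Pd1fl/fl, against 1 in each Pd1cKO-Tie2 library. *Hbb-bh1*, which is also used in primitive red cells, had no read except 5 in Pd1cKO-Tie2 replicate 2. Its 0 in Pd1cKO-Tie2 replicate 1 comes from the lack of a row and leaves room for up to 4 reads, so that library's embryonic share is a minimum. The 0 of *Hbb-y* in Pd1fl/fl replicate 2 also comes from the lack of a row, so the share there may be a minimum too. Both genes were under the filter on low counts and were not tested. Embryonic reads were 0.191% of all beta-like reads in Pd1fl/fl replicate 1, with an exact binomial (Clopper-Pearson) 95% interval of 0.0394 to 0.557%, and 0 of 1509 in Pd1fl/fl replicate 2, with an interval of 0 to 0.244% (a limit of 3 reads would be 0.199%). They were 0.0469% (0.00119 to 0.261%) and 0.289% (0.106 to 0.628%) in the Pd1cKO-Tie2 libraries. All 4 intervals share a common range, and a difference in the embryonic share was not detectable at this depth. These intervals cover counting error only.

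*Alas2* (chrX:150547375-150570638, plus strand), the erythroid heme synthesis enzyme, had 1034 and 991 reads in Pd1fl/fl, against 1249 and 1206 in Pd1cKO-Tie2. The levels were 71.7 and 69.8 CPM against 52.3 and 88.3 CPM. As for *Hbb-bs*, the Pd1fl/fl libraries were close together, Pd1cKO-Tie2 replicate 1 was the lowest and Pd1cKO-Tie2 replicate 2 the highest. The log2 fold change was -0.01 (SE 0.30, interval -0.76 to 0.74), so a change of 2-fold lay outside the interval on both sides. Leaving out 1 library at a time moved it from -0.43 to 0.33. The exons of *Alas2* overlap those of *Apex2* on the other strand by 311 bases, and the use of strand in counting is not given in the sources used here. *Apex2* had 32 to 165 reads. The housekeeping form of the enzyme, *Alas1*, was higher per length in every library, by 4.35 and 4.25 times in Pd1fl/fl, against 5.89 and 3.28 times in Pd1cKO-Tie2.

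Per kb of exon, *Hba-a1* was the highest member in each library (453.9 to 1007 CPM per kb), followed by *Hbb-bs* (113.2 to 193.2) and *Alas2* (21.8 to 36.8). The ranges over the 4 libraries of these neighbours did not overlap. *Hbb-bt* (3.21 to 5.53) and *Hba-a2* (1.32 to 5.62) came next and overlapped, with *Hba-a2* the higher of the 2 only in Pd1fl/fl replicate 1.

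Ratios within a library do not depend on how libraries are scaled. Those with globin reads do depend on how reads that match both copies were counted, which is not known. Alpha-like reads made up 80.8% (exact binomial interval 80.0 to 81.7%) and 77.7% (76.7 to 78.7%) of all globin reads in Pd1fl/fl, against 82.8% (82.1 to 83.4%) and 84.3% (83.7 to 85.0%) in Pd1cKO-Tie2. The alpha to beta read ratio was thus 4.22 and 3.48 against 4.80 and 5.38, with means of 3.85 ± 0.523 and 5.09 ± 0.410 (SD, n = 2). The groups did not overlap, but an exact two-sided permutation test gave p = 0.333, the smallest that 2 against 2 libraries allow. The intervals also separated the 2 Pd1fl/fl libraries from each other, so libraries of 1 genotype differed by more than counting error.

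In both families the copy with fewer counted reads took a smaller share of the counted reads in Pd1cKO-Tie2. How much RNA came from each copy was not tested. *Hba-a2* gave 0.814% and 0.381% of adult alpha reads in Pd1fl/fl, against 0.283% and 0.107% in Pd1cKO-Tie2. *Hbb-bt* gave 3.57% and 3.18% of adult beta reads in Pd1fl/fl, against 2.53% and 2.08% in Pd1cKO-Tie2. The groups did not overlap in either share (p = 0.333, exact permutation test of the copy ratios), yet the counting intervals of Pd1fl/fl replicate 2 and Pd1cKO-Tie2 replicate 1 did (0.233 to 0.588% against 0.190 to 0.407% for *Hba-a2*, and 2.35 to 4.20% against 1.91 to 3.29% for *Hbb-bt*). *Alas2* reads per 100 globin reads were 12.6 and 14.7 in Pd1fl/fl, against 10.1 and 9.10 in Pd1cKO-Tie2. Again the groups did not overlap, and again p = 0.333 in the exact permutation test.

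**Figure D2:**
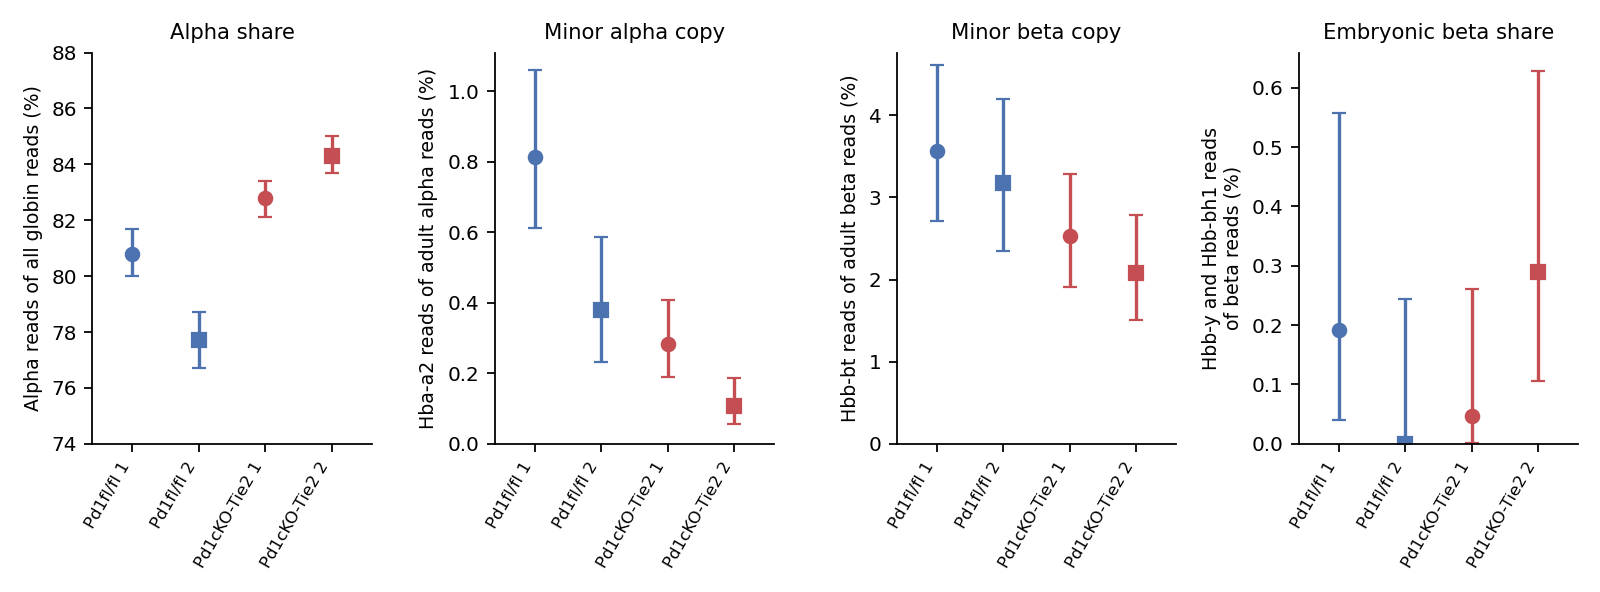
Shares within the globin reads of each library in percent, with exact binomial 95% intervals that cover counting error only (blue Pd1fl/fl, red Pd1cKO-Tie2). The panel of alpha reads starts at 74% and the other panels at 0. In the panel titles a minor copy is the one with fewer counted reads. The alpha share was 77.7 to 80.8% in Pd1fl/fl, against 82.8 to 84.3% in Pd1cKO-Tie2, the shares of *Hba-a2* and *Hbb-bt* were lower in both Pd1cKO-Tie2 libraries, and the intervals of the embryonic share overlap.

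All globin reads together were 0.0571% and 0.0493% of the library total in Pd1fl/fl, against 0.0512% and 0.0936% in Pd1cKO-Tie2. The mean was 1.36 times higher in Pd1cKO-Tie2 (0.0724 ± 0.0300% against 0.0532 ± 0.00552%, SD, n = 2, exact permutation p = 0.667). Without Pd1cKO-Tie2 replicate 2 the ratio was 0.962. Counted globin reads were therefore under 0.1% of every library, and only 1 library stood above the others. Reads that match both copies of a pair may be missing from this share.

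None of the 5 members that passed the filter on low counts met the criterion in edgeR, beside 4.02% of all tested genes (1.41% higher and 2.61% lower in Pd1cKO-Tie2), and none of the 7 with a row met it in DESeq2, beside 4.34% of all genes. None had an adjusted p under 0.05 in edgeR, limma-voom or DESeq2, and the smallest adjusted p was 0.906, 0.785 and 0.414 in these tools. At an unadjusted p under 0.05 the count was 0 of 5 in edgeR and limma-voom and 1 of 7 in DESeq2, which was *Hba-a1* (adjusted p = 0.414). The shares of all genes at that threshold were 6.39% in edgeR, 6.45% in limma-voom and 6.33% in DESeq2. An adjusted p under 0.05 was reached by 0% of all genes in edgeR and limma-voom and by 0.744% in DESeq2. The groups did not overlap for 2 of the 5 members, *Hba-a2* and *Hbb-bt*, both lower in Pd1cKO-Tie2, while 35.8% of all tested genes had groups that did not overlap and 18.1% had them with Pd1cKO-Tie2 lower. Members passed the filter on their level, so these counts describe the abundant ones.

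**Figure D3:**
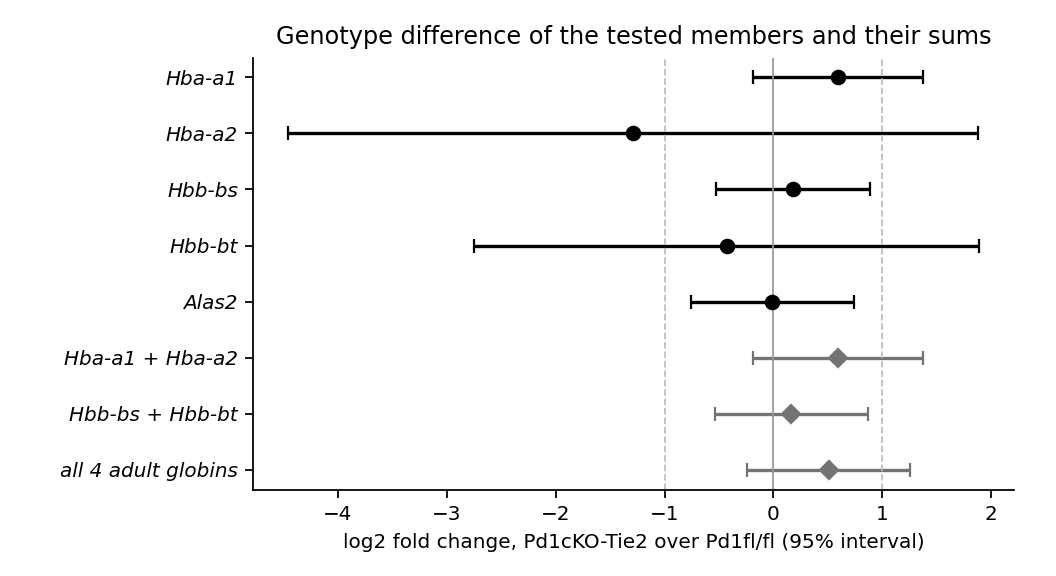
edgeR log2 fold change of Pd1cKO-Tie2 over Pd1fl/fl with 95% intervals for the 5 tested members (black circles) and for sums over near-identical copies and all 4 adult globins (grey diamonds), with dashed lines at a 2-fold change. Each interval includes 0, and those of *Hba-a2* and *Hbb-bt*, with 12 to 56 reads per library, are the widest.

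The wider erythroid programme was followed through 7 lists with 94 genes besides the members, of which 82 had a row and 71 were tested. Over these, 1 gene was higher (*Tmod1*) and 3 were lower (*Gata1*, *Sox6* and *Hp*) by the criterion in edgeR, which is 5.63% against 4.02% of all genes. The median log2 fold change was 0.119, beside -0.00381 for all tested genes. No gene of heme synthesis passed (0 of 13, median 0.12), and 9 of the 13 had a positive log2 fold change. The lowest, *Cpox*, had 34 and 51 reads against 12 and 6 reads (log2 fold change -2.64, interval -5.87 to 0.60). *Alad*, which makes porphobilinogen, was at 136.4 and 111.2 CPM against 186.4 and 180.4 CPM, a log2 fold change of 0.57 (interval 0.12 to 1.02, adjusted p = 0.735, edgeR) that was under 2-fold. *Alas1* was at 801.1 and 762.1 CPM against 790.6 and 743.8 CPM, with overlapping groups. *Fech*, ferrochelatase, which inserts iron into protoporphyrin to form heme, was at 107.5 and 121.7 CPM against 133.2 and 126.6 CPM.

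Among red cell membrane genes 1 of 12 passed, beside 4.02% of all tested genes, and the median was 0.22. *Tmod1*, tropomodulin 1, which caps actin filaments in the red cell membrane skeleton and in other cells, had 0 reads in both Pd1fl/fl libraries, against 98 and 23 in Pd1cKO-Tie2. It was at least 13.8-fold higher in Pd1cKO-Tie2 (adjusted p = 0.735, edgeR), with the Pd1fl/fl libraries set at 3 reads each, and at least 8.03-fold higher in the lower Pd1cKO-Tie2 library. It did not pass without Pd1cKO-Tie2 replicate 1. The most abundant membrane gene, *Epb41* (protein 4.1, also expressed outside blood), was at 150.0 and 114.3 CPM against 161.3 and 197.3 CPM. The anion exchanger *Slc4a1* was at 2.43 and 9.30 CPM against 2.05 and 7.76 CPM, so it differed more within a genotype than between them. *Gypc*, a red cell membrane glycoprotein, was at 59.2 and 39.0 CPM against 51.1 and 50.8 CPM.

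None of the 9 tested genes for iron uptake and the erythropoietin receptor passed (median 0.02). The ferritin heavy chain gene *Fth1* was at 11760 and 10273 CPM against 12691 and 15616 CPM, a log2 fold change of 0.36 (interval 0.05 to 0.67, adjusted p = 0.738, edgeR) under 2-fold. The transferrin receptor *Tfrc* was at 698.5 and 817.2 against 680.6 and 571.7 CPM. The iron exporter *Slc40a1* was at 1332 and 1427 CPM against 1549 and 1401 CPM, with overlapping groups. None of the 13 tested late erythroid genes passed either (median 0.14), and their most abundant ones, *Cat* (catalase, 511.9 to 657.8 CPM), *Prdx2* (a peroxide-reducing enzyme, 455.1 to 585.8 CPM) and *Bnip3l* (a mitophagy receptor, 459.6 to 569.9 CPM), are used by many cell types. Of the 13, 8 had a positive log2 fold change. The lowest, *Trim10*, had 60 and 47 reads against 5 and 19 reads (log2 fold change -2.23, interval -5.63 to 1.17).

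Of the 9 tested genes for clearance of heme and haemoglobin, 1 was lower (median 0.35), beside 2.61% of all tested genes. *Hp*, haptoglobin, which binds free haemoglobin and is also stored in neutrophil granules, had 344 and 149 reads against 76 and 75 reads, a log2 fold change of -1.99 (SE 0.64, adjusted p = 0.735, edgeR). It did not pass without Pd1fl/fl replicate 1 or without Pd1cKO-Tie2 replicate 1. The neutrophil list summed to 944.9 CPM in Pd1fl/fl replicate 1 and 27.8 CPM in Pd1fl/fl replicate 2, against 68.6 and 3.22 CPM in Pd1cKO-Tie2. Pd1fl/fl replicate 1 had 5950 reads of *Ngp* and 531 of *S100a8*, against 0 to 28 and 5 to 13 in the other 3 libraries. Another gene of that list, *Mpo*, was not confined to it, with 2423 and 339 reads in Pd1fl/fl, against 1278 and 0 in Pd1cKO-Tie2. The part of neutrophils in *Hp* was not tested. *Lrp1*, an endocytic receptor that takes up heme with hemopexin, was at 180.7 and 151.0 CPM against 86.3 and 108.3 CPM (log2 fold change -0.77, interval -1.28 to -0.26, adjusted p = 0.735, edgeR), under 2-fold. The transporter *Flvcr2* was at 224.7 and 196.4 CPM against 240.3 and 273.0 CPM.

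**Figure D4:**
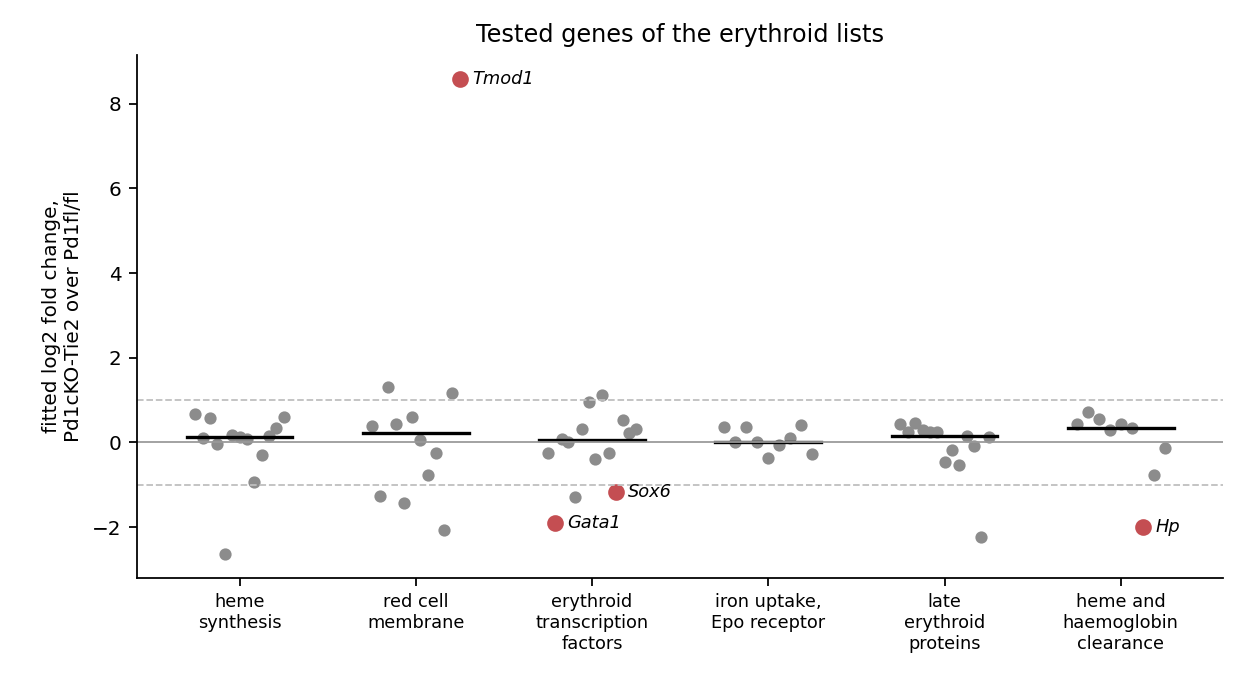
Fitted edgeR log2 fold change of Pd1cKO-Tie2 over Pd1fl/fl for each tested gene of 6 erythroid lists, with black bars at the list medians, dashed lines at a 2-fold change and the 4 genes past the criterion in red. Most genes lie within 2-fold. *Tmod1* stands highest, but with 0 reads in Pd1fl/fl its fitted value depends on the prior count and is no measure of size.

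Of 14 tested transcription factors of the erythroid lineage 2 passed, beside 4.02% of all tested genes. *Gata1*, the factor that directs globin and heme gene expression in erythroid cells and is also needed in megakaryocytes, had 205 and 200 reads in Pd1fl/fl, against 94 and 50 in Pd1cKO-Tie2. The levels were 14.2 and 14.1 CPM against 3.93 and 3.66 CPM, so both Pd1cKO-Tie2 libraries were well below both Pd1fl/fl libraries and the libraries of a genotype were close together. The log2 fold change was -1.90 (SE 0.52, interval -3.18 to -0.61, adjusted p = 0.735 in edgeR and 0.277 in DESeq2), and it stayed past the criterion in all 4 fits that left out 1 library. *Sox6*, which acts in the switch from embryonic to adult globin and also in neural cells, was at 26.0 and 33.2 CPM against 13.2 and 13.3 CPM (log2 fold change -1.16, SE 0.34, adjusted p = 0.735, edgeR). It did not pass without Pd1fl/fl replicate 2 or without Pd1cKO-Tie2 replicate 1.

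The other 12 tested factors did not pass, and the median over all 14 was 0.05. *Gata2*, expressed in endothelium and blood progenitors, was the most abundant at 131.4 and 144.9 CPM against 169.6 and 121.5 CPM. *Klf1*, the erythroid factor that activates adult beta globin, had 30 and 32 reads against 11 and 18 reads (log2 fold change -1.29, SE 1.36). *Lmo2*, a partner of the GATA factors that endothelium also expresses, was at 80.9 and 61.9 CPM against 135.9 and 141.9 CPM (log2 fold change 0.96, interval 0.43 to 1.49, adjusted p = 0.735, edgeR), just under 2-fold. Relative to *Alas2*, *Gata1* reads were 19.8% and 20.2% in Pd1fl/fl, against 7.53% and 4.15% in Pd1cKO-Tie2 (exact permutation p = 0.333).

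**Figure D5:**
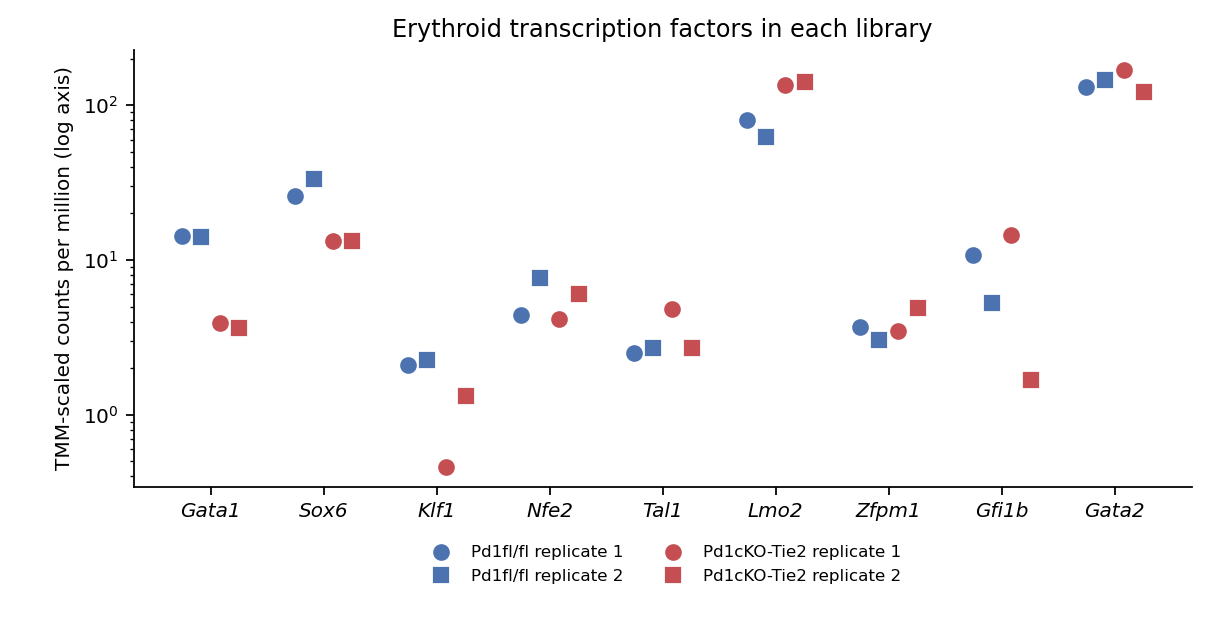
TMM-scaled CPM of 9 erythroid transcription factors in each library on a log axis (blue Pd1fl/fl, red Pd1cKO-Tie2; circles replicate 1, squares replicate 2). *Gata1* (14.1 to 14.2 against 3.66 to 3.93) and *Sox6* (26.0 to 33.2 against 13.2 to 13.3) are lower in both Pd1cKO-Tie2 libraries, *Lmo2* is higher in both, and factors such as *Gfi1b* differ as much within a genotype.

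Measures of other kinds are given beside *Gata1* and *Alas2*. *Gata1* and *Alas2* are X-linked. *Xist*, the RNA that silences an X chromosome in female cells, had 0 reads in both Pd1fl/fl libraries, against 6706 and 378 in Pd1cKO-Tie2. As levels the Pd1cKO-Tie2 libraries were at 280.7 and 27.7 CPM, far apart within the genotype. No Y-linked gene was examined, so the sex behind each library is not settled. Genotype and the sex of the animals cannot be told apart here. Of the 12 platelet and megakaryocyte genes none passed (median -0.37), and 4 of them had a positive log2 fold change. The most abundant, the integrin gene *Itga2b*, was at 75.5 and 74.6 CPM against 56.5 and 56.7 CPM, while *Clec1b*, a platelet receptor, overlapped at 29.8 and 57.6 CPM against 29.6 and 40.1 CPM. The von Willebrand factor receptor gene *Gp1ba* lay the other way, with 28 and 68 reads against 229 and 164 reads (log2 fold change 1.68). The list's summed level was 239.3 to 273.5 CPM in Pd1fl/fl, against 208.6 to 217.8 CPM in Pd1cKO-Tie2. For the lists that follow, 2.61% of all tested genes were lower by the criterion, and none had an adjusted p under 0.05 in edgeR. The leukocyte list (1 of 8 lower, *Itgam*, median -0.70) summed to 1199 to 1402 CPM against 771.5 to 961.7 CPM. The microglia list (2 of 10 lower, *Trem2* and *Tmem119*, median -0.82) summed to 2047 to 2441 CPM against 750.6 to 1734 CPM. The endothelial list (0 of 12, median 0.36) summed to 10837 to 11815 CPM against 14065 to 14995 CPM.

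In the other lists, 2 of 6 neutrophil genes were lower (*Ngp* and *S100a8*, median -1.74, 27.8 to 944.9 CPM against 3.22 to 68.6 CPM), beside 2.61% of all tested genes. Both calls rested on Pd1fl/fl replicate 1, since Pd1fl/fl replicate 2 had 0 and 7 reads of these genes, within the range of the Pd1cKO-Tie2 libraries, and the groups overlapped. In addition, 2 of 8 radial glia genes were lower (*Fabp7* and *Hes5*, median -0.97, 1162 to 1308 CPM against 578.0 to 778.7 CPM), beside the same 2.61%. None passed among 10 neuronal genes (median -0.02, 877.0 to 1253 CPM against 913.8 to 1053 CPM), 6 pericyte genes (median -0.34, 3706 to 5668 CPM against 3793 to 3801 CPM) or 8 oligodendrocyte genes (median 0.02, 113.3 to 204.4 CPM against 118.5 to 218.0 CPM). The part of these other cell types in the erythroid values was not tested.

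The profile of the summed adult globins over the 4 libraries (569.0 and 476.3 CPM against 517.6 and 970.3 CPM with the embryonic reads included) was set by the high value of Pd1cKO-Tie2 replicate 2. Measured by the root mean square difference of centred log2 CPM, *Hbb-bs* was 0.184 from it, *Alas2* 0.268, *Hbb-bt* 0.463, *Hba-a2* 0.970 and *Gata1* 1.21. Of 13415 genes compared, 172 were nearer than *Hbb-bs*, 781 nearer than *Alas2* and 11389 nearer than *Gata1*. *Hbb-bs*, *Hbb-bt* and *Hba-a2* are part of the summed profile, so their distances are partly fixed in advance. Most reads of the sum are those of *Hba-a1*. Among the nearest were *Kcna6* (0.0551), *Gclm* (0.0595), *S1pr4* (0.0639) and *Chst1* (0.0670), none of which is in the erythroid lists. *Kcna6*, for example, was at 26.8 and 23.6 CPM against 25.2 and 43.6 CPM. With 4 libraries such likeness says only that these genes were also high in Pd1cKO-Tie2 replicate 2.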

How the data were processed

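The members and gene lists were chosen with earlier results of these data known. The authors deposited 4 tables, each setting 1 Pd1cKO-Tie2 against 1 Pd1fl/fl library. The deposited counts are raw whole numbers of reads for each gene. The deposited CPM columns, computed by the authors from counts and library totals, were used only to obtain the totals. Columns of the authors' own comparisons (fold changes, p-values, adjusted p-values) were not used. The submitters' processing notes name TopHat2 2.0.12, Bowtie2 2.2.3 and HTSeq 0.6.0. Gene positions are on GRCm38 (90.1% identical to GENCODE M21). Broken lines (5 in each of 2 files) were left out, and 23 symbols turned into dates were recovered by identifier.

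Genes without a row were taken as 0, which leaves room for up to 4 reads. Such reads were 0.00495 to 0.0107% of a library's total, which was 13715837 to 24147311. Counts were tested in R 4.3.3 with edgeR 4.0.16 (quasi-likelihood F test) after filterByExpr and TMM scaling, with no covariate, on all 4 libraries (biological coefficient of variation 0.61). In simulated data with 4-fold changes in 200 of 14744 genes this test found 38% at an adjusted p under 0.05 and 68.5% by the criterion, so a 4-fold change can be missed. Exon lengths, coding sequences and shared stretches came from GENCODE M21. Alternatives were DESeq2 1.42.0, voom of limma 3.58.1, no filter, other scalings, leaving out each library and, added after seeing the data, sums over near-identical copies. Genes named are all members, up to 3 genes per list (those past the criterion, then the most abundant) and the 5 genes nearest to the summed adult globins, and some of these are not reported here. *Slc4a1*, *Cpox*, *Trim10*, *Klf1*, *Lmo2*, *Gfi1b* and the other factors plotted with it, *Gp1ba*, *Apex2*, *Pdcd1*, *Xist* and the genes beside the globin loci were named outside that rule, after their values were seen.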

Additional observations from a re-analysis of the deposited data

How the results depend on the processing

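No paired analysis was possible because the labels of the genotypes share only 1 replicate number. Under DESeq2, limma-voom, no filter, 3 other scalings, scaling without the members and sums over copies, no member met the criterion or reached an adjusted p under 0.05, and the signs did not change. *Hba-a1* had an unadjusted p under 0.05 in DESeq2 and in edgeR without the filter (adjusted p = 0.414 and 0.924). Leaving out each library in turn gave log2 fold changes of 0.06 to 1.00 for *Hba-a1*, -1.83 to -0.42 for *Hba-a2*, -0.25 to 0.52 for *Hbb-bs*, -0.68 to -0.20 for *Hbb-bt* and -0.43 to 0.33 for *Alas2*. The sign of *Hbb-bs* turned without Pd1cKO-Tie2 replicate 2 (-0.25), and that of *Alas2* turned without Pd1fl/fl replicate 1 (0.01) and without Pd1cKO-Tie2 replicate 1 (0.33). The ratio of alpha to beta reads in Pd1cKO-Tie2 over Pd1fl/fl was 1.32 (1.21 to 1.46), that of the summed globin share 1.36 (0.962 to 1.76, the lowest without Pd1cKO-Tie2 replicate 2), and 4 (3 to 6) genes of the erythroid lists passed. With 1 library left in a genotype, edgeR takes its spread from the other. Depth limits *Hbb-y*, *Hbb-bh1*, *Hba-a2* and *Hbb-bt*, which had 0 to 56 reads.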

Other observations

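Further globins gave few reads. The theta-like globin *Hbq1b*, which lies between the adult alpha genes, had 7 and 0 reads in Pd1fl/fl, against 9 and 31 in Pd1cKO-Tie2, and 28.3% of its 50-base stretches also occur in *Hbq1a*. Cytoglobin (*Cygb*), a globin of fibroblasts and pericytes, had 29 and 41 reads against 67 and 25 reads (log2 fold change -0.08, SE 1.07, edgeR). Neuroglobin (*Ngb*), a neuronal globin, had 36 reads in Pd1cKO-Tie2 replicate 1 and 0 in the other 3 libraries.

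Among the coding genes within 100 kb of the globin clusters, all 6 beside the alpha cluster had a row. *Nprl3*, whose introns hold the main enhancers of the alpha genes, was at 25.7 and 28.1 CPM against 16.9 and 20.4 CPM (log2 fold change -0.53, SE 0.32, edgeR), and *Rhbdf1* was at 54.0 and 53.8 CPM against 67.7 and 65.0 CPM (0.30, SE 0.22, edgeR). Neither passed, nor did *Snrnp25*, *Mpg* or *Sh3pxd2b*, and *Il9r*, with 21 reads in 1 library, was not tested. None of the 13 coding genes beside the beta cluster, all olfactory receptor genes, had a row.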
